A study of Homo sapiens with 15 samples.

Results

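In NCI-H1975, an established human lung adenocarcinoma line that carries and depends on mutant EGFR, cells given an siRNA against EGFR (siEGFR, 3 libraries) were compared with cells given a negative-control siRNA (siNC, 3 libraries). These 6 libraries, of 15 in the series, were chosen by their treatment label. Of 61248 loci, the 13318 that reached 1 FPKM in 3 or more of the 6 were tested. FPKM counts fragments per unit of gene length and per library depth, so levels of different genes can be set side by side.

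The other 9 libraries, 3 each, are from the same line with almonertinib (a drug that blocks the EGFR kinase), with EGF (the ligand of EGFR), or as control cells. No genetic change other than those of the line itself is labelled in any group. The siRNA sequences, doses, times and culture conditions are not given in the sources used here, and 1 siRNA label stands for EGFR, so the effect of a second siRNA was not tested. The labels do not say whether the 3 libraries of a group are separate cultures, so p-values reflect the variation among libraries, whether biological or technical.

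EGFR is a receptor tyrosine kinase at the cell surface that binds AREG, TGFA, EREG and related ligands and signals through RAS and ERK, through PI3K and AKT, and through STAT3. ERK induces transcripts of its own restrainers, such as DUSP and SPRY proteins, and many EGFR ligands are themselves induced by EGFR signalling. An siRNA lowers a transcript and with it the protein, whereas a kinase inhibitor leaves the protein in place and blocks its activity.

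The read totals behind the libraries were 23813985, 22761132 and 20888335 in siEGFR and 19844536, 19979929 and 34908302 in siNC, within a range of 18009903 to 34908302 over the 15. The median SD between replicates was 0.0480 log2 units in siEGFR and 0.0573 in siNC, against 0.137 in almonertinib, 0.106 in EGF and 0.145 in control cells. Epithelial keratins of a lung adenocarcinoma line were abundant, with KRT7 at 284 FPKM in siEGFR and 303 FPKM in siNC. NKX2-1, the lung lineage factor, averaged 11.8 FPKM in siEGFR and 14.98 FPKM in siNC. Of the 9 fibroblast markers only COL1A1, COL1A2 and PDGFRB were expressed, and DCN, LUM, PDGFRA, FAP and POSTN averaged under 0.05 FPKM in both groups. No endothelial marker passed the filter on low values. Of 11 leukocyte markers CD14 and CSF1R passed it, with CD14 at 3.46 ± 0.576 FPKM in siEGFR and 6.99 ± 0.285 FPKM in siNC (log2 change -0.85) and CSF1R higher, at 2.42 ± 0.157 FPKM in siEGFR and 1.92 ± 0.160 FPKM in siNC (0.23, lost in 7 of 16 alternative settings), while PTPRC, CD3E and LYZ averaged under 0.05 FPKM.

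The EGFR transcript (ENSG00000146648) was at 29.9, 28.6 and 28.9 FPKM in the siEGFR libraries, against 49.4, 49.4 and 49.8 FPKM in the siNC libraries. The groups were far apart relative to their spread, and siEGFR cells retained 58.8% of the siNC mean (log2 change -0.75 ± 0.03, SE, limma adjusted p = 1.85e-05, n = 3 each). The siNC level was itself above that of the other groups, which averaged 16.7 ± 2.18 FPKM with almonertinib, 25.4 ± 4.26 FPKM with EGF and 24.4 ± 3.17 FPKM in control cells (SD, n = 3). The siEGFR cells therefore held more EGFR transcript than the control cells of the series did. ERBB2, the partner receptor, was at 10.4, 10.4 and 9.99 FPKM in siEGFR and at 10.1, 10.5 and 9.98 FPKM in siNC (0.01 ± 0.03, adjusted p = 0.886). ERBB3 and ERBB4 were below the filter, at 0.573 and 0.00113 FPKM in siEGFR and 0.832 and 0.0167 FPKM in siNC.

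Across the transcriptome the response was broad and small in size. Of the 13318 genes, 1695 were higher in siEGFR (12.7%) and 1508 were lower (11.3%) at an adjusted p under 0.05, 24.1% in all. The median size of these changes was 0.22 on the log2 scale. At 1.5-fold or more, 50 of them were higher and 108 lower, and at 2-fold or more 5 were higher and 24 lower. In 42.9% of the tested genes the 3 siEGFR values did not overlap the 3 siNC values, so separation of the groups alone is common here. When all 15 libraries shared 1 estimate of spread, 346 genes were higher and 492 lower, and 835 of these 838 were among the 3203 called with the 6 libraries. Without siEGFR 2, siEGFR 3 or siNC 1 the count was 1884, 2046 and 2052. Counts from the 15-library fit stand beside those of the gene groups, because that fit gave the lowest count for most of them. Of the genes in these groups, CNN1 reached the filter only through siEGFR, and 8 only through siNC, of which SFTPA1, SFTPB, LAMP3 and SLC34A2 are alveolar genes, 3 are interferon genes (1 of them called) and 1 is in the keratin and squamous group. Such a gene could be tested only because it is high in 1 group, so its values are a description and its call no support for its group. Of the single genes named below, CCN2, CAV1, KRT8, KRT18, VIM, ID3, ABCA3, ERRFI1, SOCS3, MET, CD276, MCL1, BCL2L1, ELOVL6, ANLN, MCM3, MCM6, IFI27, IFI44, SMTN and MYL6 lost their call in that fit and in no other setting at this threshold. The siEGFR calls of NAPSA and HSD17B14 were each lost in 1 of 16 alternative settings, and that of TGM2 in 2.

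**Figure D1:**
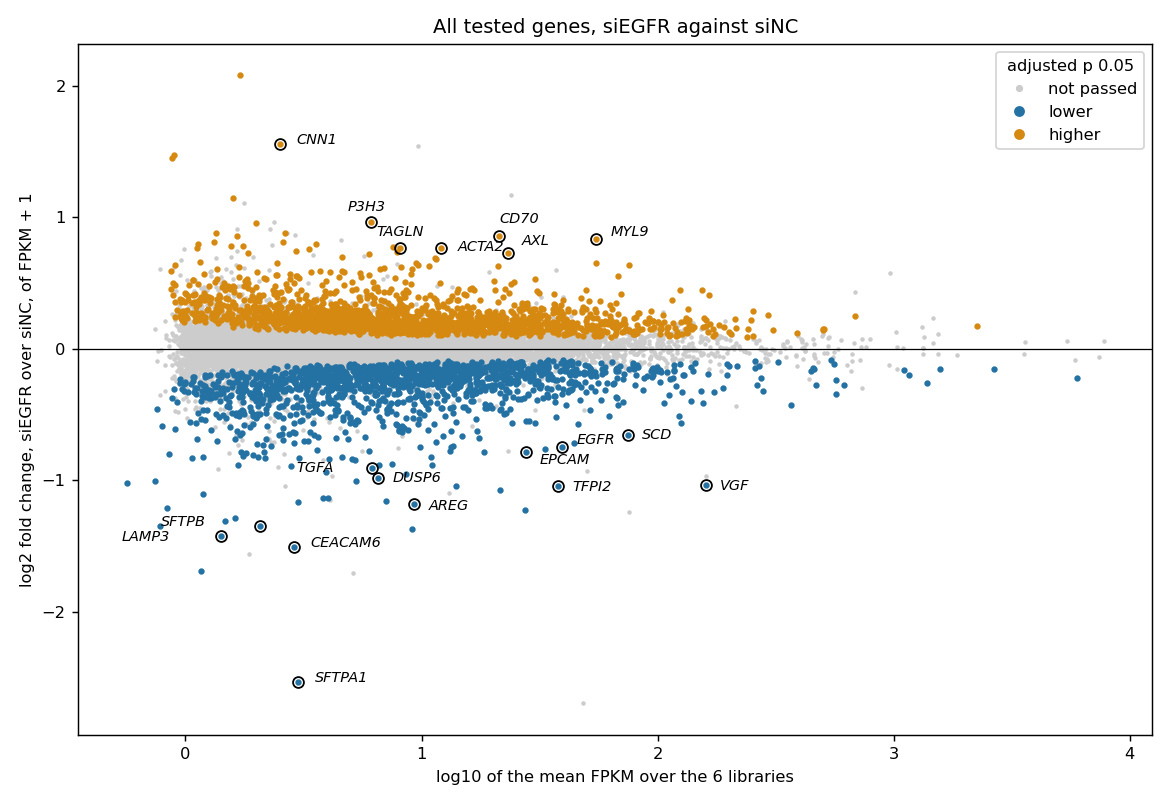
Change in siEGFR over siNC (y axis, log2 fold change of FPKM + 1) against level (x axis, log10 of the mean FPKM over the 6 libraries) for the 13318 tested genes, with 1695 higher in orange, 1508 lower in blue and the rest in grey. The added 1 draws genes of low level towards 0; SFTPA1 is the lowest called gene at -2.53, and EGFR itself is at -0.75.

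Most expressed ligands of the receptor were lower in siEGFR. AREG, TGFA, EREG and BTC, 4 of the 6 ligands tested, fell and none rose (3 lower in the 15-library fit). AREG (amphiregulin) was at 5.81, 5.40 and 4.78 FPKM in siEGFR, against 13.5, 13.1 and 13.3 FPKM in siNC, which left 40.1% (-1.18 ± 0.06, adjusted p = 4.14e-05). TGFA (transforming growth factor alpha) was at 4.17, 4.11 and 3.71 FPKM in siEGFR and at 8.35, 8.19 and 8.61 FPKM in siNC (-0.91 ± 0.05, adjusted p = 4.21e-05). For both ligands the highest siEGFR value lay below the lowest siNC value, as in 19.1% of all tested genes. EREG (epiregulin) was at 6.42, 6.24 and 6.54 FPKM in siEGFR and at 10.5, 9.44 and 10.5 FPKM in siNC (-0.59). BTC (betacellulin) was low throughout, at 1.12, 1.14 and 1.06 FPKM in siEGFR and 1.37, 1.55 and 1.78 FPKM in siNC, and its change of -0.28 was lost in 8 of 16 alternative settings. NRG1, a ligand of ERBB3 and ERBB4, was at 1.88, 1.90 and 1.80 FPKM in siEGFR and 1.70, 1.57 and 1.63 FPKM in siNC and did not pass (0.12). HBEGF was at 6.50, 6.52 and 6.79 FPKM in siEGFR and 5.86, 6.31 and 6.38 FPKM in siNC and did not pass either (0.08).

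**Figure D2:**
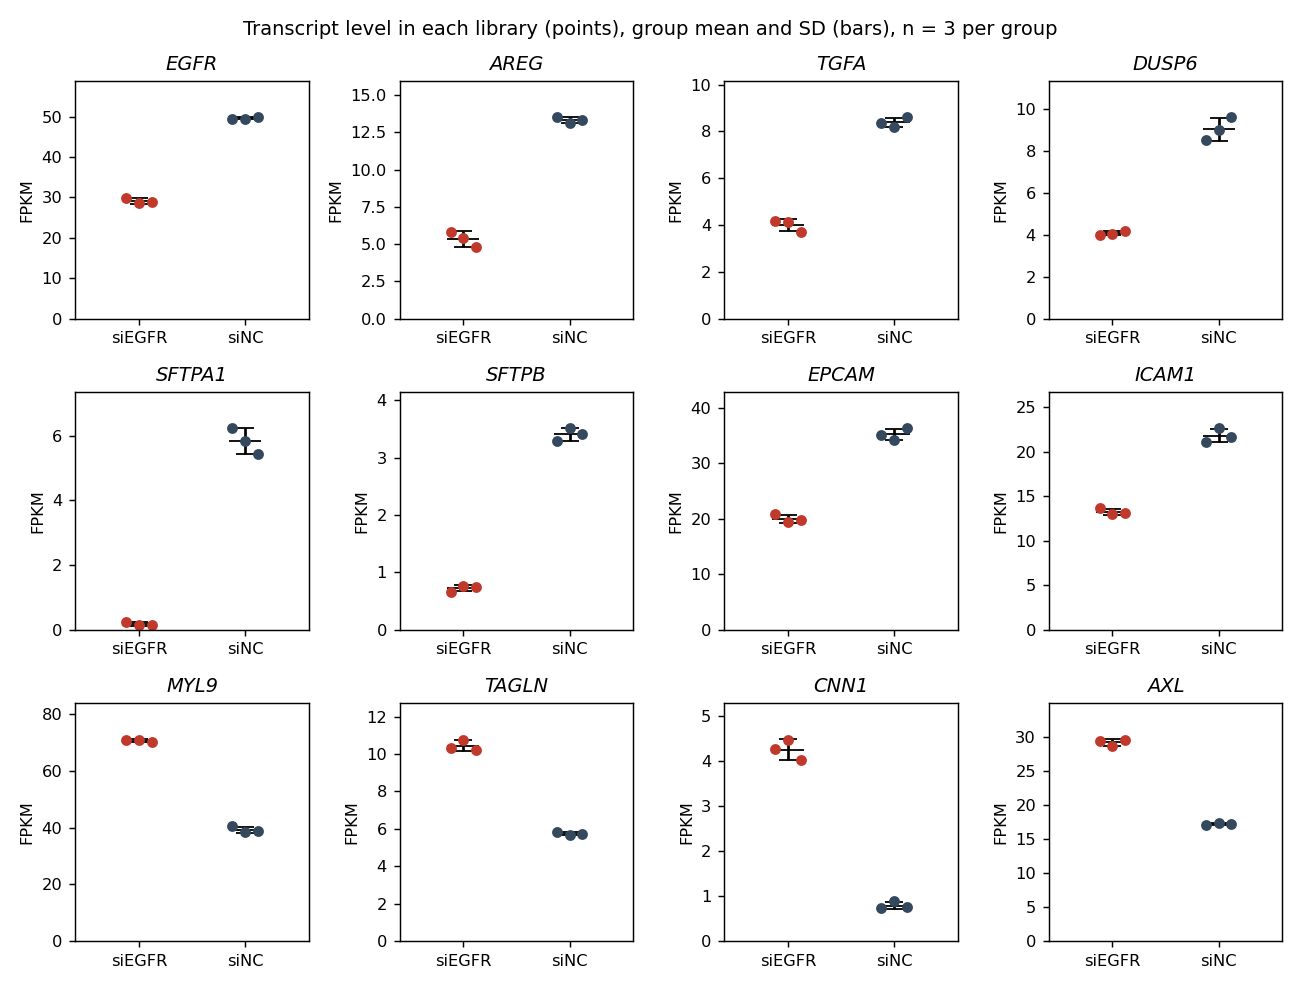
FPKM of 12 genes (y axes, linear from 0) in each siEGFR library (left, red) and each siNC library (right, dark), with the group mean and SD, n = 3 each. The 8 genes of the upper 2 rows are lower in siEGFR and the 4 of the bottom row are higher. The groups do not overlap in any of the 12, as in 42.9% of all tested genes. SFTPA1, SFTPB and CNN1 reached the filter through 1 group only.

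Around the receptor, changes were smaller. Among 18 adaptors and restrainers of EGFR 5 were lower and none higher (1 lower in the 15-library fit, 3 lower without siNC 1 or without siEGFR 2). The adaptor SHC1 averaged 48.3 ± 1.00 FPKM in siEGFR and 56.0 ± 0.135 FPKM in siNC (-0.21), the EGFR inhibitor ERRFI1 changed by -0.23 and SOCS3, a feedback inhibitor of cytokine signalling, by -0.19. Of 6 proteases and rhomboid-like proteins that release EGFR ligands, ADAM17 (-0.15) and ADAM15 (-0.11) were lower and none was higher. Their calls were lost in 6 and 7 of the 16 alternative settings, among them the 15-library fit and those without siNC 1 or siEGFR 2.

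Transcripts that report ERK output mostly fell. Of 21 tested, 14 were lower and 1 was higher, with a median change of -0.26 against 0.01 over all tested genes (10 lower and 1 higher in the 15-library fit). DUSP6, the cytoplasmic ERK phosphatase, was at 3.98, 4.05 and 4.18 FPKM in siEGFR, against 8.51, 8.99 and 9.61 FPKM in siNC (-0.98 ± 0.05, adjusted p = 3.56e-05). MYEOV, a gene co-amplified with CCND1 in some tumours, was at 6.04, 5.19 and 5.43 FPKM in siEGFR, against 11.7, 11.6 and 11.6 FPKM in siNC (-0.95 ± 0.05, adjusted p = 5.36e-05). Both had less than 1 FPKM between their 3 replicates in siEGFR. CCND1, which encodes cyclin D1, was at 58.5, 58.2 and 57.7 FPKM in siEGFR and 74.6, 75.3 and 76.2 FPKM in siNC (-0.37 ± 0.02, adjusted p = 0.000155).

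FOSL1, an AP-1 subunit that ERK signalling stabilises and induces, went the other way. It was at 81.8, 80.2 and 77.1 FPKM in siEGFR, against 61.6, 60.1 and 57.2 FPKM in siNC (0.41). Of 15 immediate early genes, which respond first to growth factors, 6 were lower and 2 were higher (4 and 1 in the 15-library fit). KLF4 (-0.48) and EGR1 (-0.49) fell, with EGR1 at 2.96, 2.75 and 3.08 FPKM in siEGFR and 4.32, 4.79 and 4.40 FPKM in siNC. CCN1, a matrix-associated signalling protein, was at 55.1, 53.4 and 52.97 FPKM in siEGFR, against 39.6, 42.2 and 41.2 FPKM in siNC (0.39).

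Genes of smooth muscle and of the contractile cytoskeleton were higher more often than lower. Of 29 tested, 15 were higher and 3 were lower, with a median of 0.13 (7 and 2 in the 15-library fit, and 9 higher without siEGFR 2). CNN1, the smooth muscle calponin that binds actin, was at 4.26, 4.48 and 4.02 FPKM in siEGFR, against 0.728, 0.882 and 0.747 FPKM in siNC, 5.41 times the siNC mean (1.56 ± 0.06). MYL9, a regulatory myosin light chain, was at 70.9, 71.0 and 70.1 FPKM in siEGFR, against 40.4, 38.4 and 38.8 FPKM in siNC (0.83 ± 0.03, adjusted p = 1.7e-05). TAGLN, the actin-binding protein transgelin, was at 10.3, 10.8 and 10.2 FPKM in siEGFR, against 5.83, 5.65 and 5.73 FPKM in siNC (0.76 ± 0.03, adjusted p = 3.05e-05). In all 3 the lowest siEGFR value was above the highest siNC value, as in 23.8% of all tested genes. CNN1 reached the filter only through siEGFR, so its separation is a description.

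ACTA2, smooth muscle alpha actin, was at 14.9, 16.2 and 15.3 FPKM in siEGFR and 7.96, 9.72 and 8.47 FPKM in siNC (0.76). TPM1, a tropomyosin, was at 19.4, 19.2 and 19.3 FPKM in siEGFR and 14.2, 13.6 and 14.1 FPKM in siNC (0.44). The kinase of myosin light chains, MYLK, rose by 0.33, the smooth muscle protein SMTN by 0.26 and the nonmuscle myosin heavy chain MYH9 by 0.25. Smaller rises were seen for the tropomyosins TPM4 (0.22) and TPM2 (0.17), the actinin ACTN4 (0.18), the cytoplasmic actin ACTB (0.17), the light chain MYL6 (0.16), and the calponins CNN3 (0.11) and CNN2 (0.10). The calls of TPM4, TPM2, ACTN4, ACTB, CNN3 and CNN2 were lost in 4 to 9 of the 16 alternative settings, most often when 1 library of either group was left out. ACTB shares sequence with ACTG1, so reads may be split between them.

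The 3 members that fell were CSRP1, a LIM protein of smooth muscle (-0.28), ACTG2, enteric smooth muscle actin (-0.24), and the light chain MYL12A (-0.17). The last 2 lost their calls in 6 and 3 of the 16 alternative settings. SRF (0.13), which encodes serum response factor, ACTG1 (0.13), TLN1 (0.10), ACTN1 (0.07), MYL12B (0.06), CALD1 (0.04), PDLIM7 (0.03), TAGLN2 (0.01), VCL (-0.02) and FLNA (-0.07) did not pass. DES, MYH11 and LMOD1, which mark differentiated muscle, were below the filter, at 0.513, 0.121 and 0.268 FPKM in siEGFR and 0.519, 0.121 and 0.243 FPKM in siNC. In bulk RNA, fewer cells with a transcript and less of it per cell cannot be told apart, here or in the groups that follow.

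**Figure D3:**
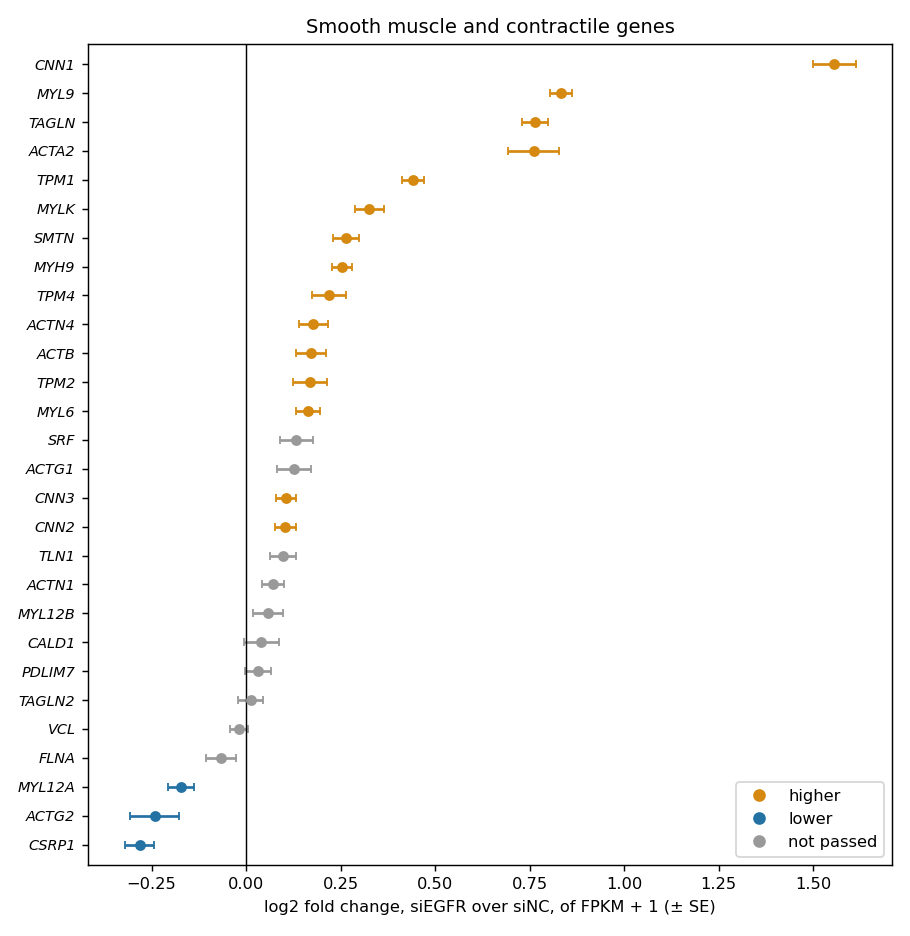
Log2 fold change of FPKM + 1, siEGFR over siNC (x axis, points, with SE as bars), of 28 of the 29 tested smooth muscle and contractile genes (rows), in orange where higher (15), blue where lower (3) and grey where not passed (10). CNN1, MYL9, TAGLN and ACTA2 stand apart from the rest of the list, which lies between -0.28 and 0.44.

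Serum response factor binds the CArG box, which was searched by that name on both strands in the 250 bases before each RefSeq gene start (GRCh38.p14, a build other than that of the files). It was in 9 of 49 promoters of the 25 tested contractile genes in the table (18.4%), against 1.16% of all 35116 promoters. It was found for 4 of 12 higher genes, 1 of 3 lower genes and 4 of 10 genes that did not pass, so matches occurred in all 3 sets. ACTA2 and CNN1 had no match in this window, and MYL9 and TAGLN were not in the table. The windows of the 4 higher genes and, for contrast, of ACTG2, which fell, are shown with the box in capitals. They lie at chr3:123620608-123620667 (minus strand, MYLK), chr22:31084927-31084986 (plus, SMTN), chr19:16067340-16067399 (plus, TPM4), chr19:1026494-1026553 (plus, CNN2) and chr2:73892873-73892932 (plus, ACTG2).
MYLK: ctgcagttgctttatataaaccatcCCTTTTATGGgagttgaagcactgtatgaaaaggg
SMTN: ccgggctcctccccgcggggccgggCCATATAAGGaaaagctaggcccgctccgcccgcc
TPM4: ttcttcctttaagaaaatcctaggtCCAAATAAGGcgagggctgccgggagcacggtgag
CNN2: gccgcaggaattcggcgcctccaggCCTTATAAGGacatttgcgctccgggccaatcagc
ACTG2: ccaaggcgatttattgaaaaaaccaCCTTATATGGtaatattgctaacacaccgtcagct

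Targets of YAP and TEAD, which respond to tension of the cytoskeleton, were also mostly higher. Of 21 tested, 11 were higher and 4 lower, with a median of 0.15 (4 and 1 in the 15-library fit, and 2 lower without siEGFR 2). AXL, a receptor tyrosine kinase, was at 29.3, 28.6 and 29.6 FPKM in siEGFR, against 17.1, 17.4 and 17.2 FPKM in siNC (0.73 ± 0.03, adjusted p = 1.85e-05). F3, the tissue factor of coagulation, was at 17.5, 17.6 and 18.1 FPKM in siEGFR and 12.9, 12.5 and 14.03 FPKM in siNC (0.41), and the connective tissue growth factor CCN2 rose by 0.28. NT5E, the ectonucleotidase CD73, fell to 30.2, 30.5 and 30.6 FPKM in siEGFR, against 43.2, 42.8 and 46.4 FPKM in siNC (-0.52).

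TGF-beta targets rose in part. Of 15 tested, 6 were higher and 1 lower (2 and 0 in the 15-library fit, and 3 higher without siNC 1 or without siEGFR 2). The focal adhesion protein TGFB1I1 was at 6.30, 6.60 and 6.03 FPKM in siEGFR and 4.60, 4.70 and 4.41 FPKM in siNC (0.39) and ID3, an inhibitor of basic helix-loop-helix factors, rose by 0.18. ID2, SMAD6, SMAD7 and the ligand TGFB1 did not pass, at -0.10, 0.04, -0.03 and 0.05.

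Collagen genes and enzymes that modify collagen were higher in part. Of 29 tested, 10 were higher and 1 lower (5 and 1 in the 15-library fit), with a median of 0.10. P3H3, a prolyl hydroxylase of collagen, was at 8.43, 8.40 and 8.26 FPKM in siEGFR, against 4.17, 3.68 and 3.62 FPKM in siNC (0.96 ± 0.05, adjusted p = 4.92e-05). COL1A1, a chain of type I collagen, was at 14.3, 14.5 and 14.4 FPKM in siEGFR, against 8.49, 8.81 and 8.52 FPKM in siNC (0.68). Its partner chain COL1A2 was at 177, 180 and 178 FPKM in siEGFR and 129, 135 and 128 FPKM in siNC (0.44). COL17A1, a hemidesmosomal collagen of epithelia, fell by 0.39. COL1A1, COL1A2 and PDGFRB (2.12, 2.07 and 2.19 FPKM in siEGFR, 1.26, 1.54 and 1.47 FPKM in siNC) are also fibroblast markers, and the summed level of the 9 fibroblast markers was 194 to 196 FPKM in siEGFR and 138 to 146 FPKM in siNC. The defining markers DCN, LUM, PDGFRA, FAP and POSTN were at or near 0 in both groups.

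Surfactant and alveolar genes mostly fell. Of 13 tested, 10 were lower and 1 was higher, with a median of -0.31 (7 and 0 in the 15-library fit). SFTPA1, SFTPB, LAMP3 and SLC34A2, 4 of the 10 lower ones, were in the test only through siNC. SFTPA1, which encodes surfactant protein A, was at 0.240, 0.143 and 0.156 FPKM in siEGFR, against 6.23, 5.84 and 5.43 FPKM in siNC, so that 3.08% of the siNC level was left (-2.53 ± 0.06). Its near-identical relative SFTPA2 was at 0.00519 FPKM in siEGFR and 0.205 FPKM in siNC, and reads could be split between the pair. SFTPA1 averaged 0.0433 FPKM in control cells, 0.0310 FPKM with EGF and 0.0509 FPKM with almonertinib, so siNC was the only group of the 5 above 1 FPKM.

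SFTPB, surfactant protein B, was at 0.664, 0.770 and 0.745 FPKM in siEGFR, against 3.29, 3.51 and 3.42 FPKM in siNC (-1.35). LAMP3, a lysosomal membrane protein of type II cells, was at 0.388, 0.302 and 0.240 FPKM in siEGFR, against 2.56, 2.42 and 2.56 FPKM in siNC (-1.42). The lamellar body transporter ABCA3 fell by 0.28, NKX2-1 by 0.31, the aspartic protease NAPSA by 0.37 and the phosphate transporter SLC34A2 by 0.31, the last call being lost in 6 of 15 alternative settings, 5 of them with 1 library left out. AGER, a marker of type I cells, did not pass (-0.04), and CAV1, also of type I cells, was at 225, 228 and 228 FPKM in siEGFR and 202, 206 and 203 FPKM in siNC (0.16). SFTPC and SFTPD were below 0.1 FPKM in both groups.

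Epithelial genes were mostly lower. Of 21 tested, 13 were lower and 2 were higher, with a median of -0.15 (3 and 0 in the 15-library fit, and 8 lower without siNC 1 or without siEGFR 2). EPCAM, the epithelial adhesion molecule, was at 20.8, 19.4 and 19.8 FPKM in siEGFR, against 35.1, 34.2 and 36.3 FPKM in siNC (-0.78). The cadherin CDH1 was at 10.37, 10.33 and 10.05 FPKM in siEGFR, against 15.8, 16.3 and 16.9 FPKM in siNC (-0.62). The simple-epithelial keratins KRT8 (0.28) and KRT18 (0.22) were the members that rose.

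Mesenchymal genes changed in both directions. Of 13 tested, 6 were lower and 3 higher (3 and 0 in the 15-library fit). FN1, fibronectin, was at 103, 100 and 101 FPKM in siEGFR, against 148, 157 and 147 FPKM in siNC (-0.57), and the integrin ITGA5 (-0.31) and the matrix protein TNC (-0.33) fell. VIM, vimentin, was at 167, 180 and 170 FPKM in siEGFR and 146, 147 and 151 FPKM in siNC (0.22), and ZEB1, SNAI1 and CD44 did not pass, at 0.07, 0.08 and 0.06. SNAI2 was higher, with changes of 0.17 to 0.23 over the 16 alternative settings, and its call was lost in 3 of them.

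Keratins and secreted proteins of squamous epithelia split by member. Of 9 tested, 3 were higher and 6 were lower (3 and 3 in the 15-library fit). KRT81, a hair keratin, was at 10.4, 10.1 and 9.90 FPKM in siEGFR and 5.93, 6.30 and 6.45 FPKM in siNC (0.62), and KRT16 rose by 0.53. The calcium-binding protein S100A9 fell by 0.49. Among pregnancy-specific glycoproteins and CEACAMs, CEACAM6, an adhesion molecule of epithelial tumours, was at 1.07, 0.966 and 1.04 FPKM in siEGFR, against 4.60, 4.84 and 4.84 FPKM in siNC (-1.51 ± 0.04, adjusted p = 9.11e-06). PSG4 was at 9.91, 9.51 and 10.1 FPKM in siEGFR and 5.16, 5.62 and 5.25 FPKM in siNC (0.77), with near-identical relatives that could share its reads. These were 1 of 5 lower and 1 of 5 higher, with the same counts in the 15-library fit.

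Protease inhibitors fell more often than they rose, with 10 of 18 lower and 3 higher (8 and 3 in the 15-library fit). TFPI2, an inhibitor of serine proteases in the matrix, was at 24.2, 24.3 and 24.4 FPKM in siEGFR, against 49.7, 49.2 and 54.9 FPKM in siNC (-1.05 ± 0.04, adjusted p = 2.42e-05). SERPINB2, an inhibitor of plasminogen activators, was at 7.72, 7.73 and 7.55 FPKM in siEGFR and 13.9, 14.2 and 15.05 FPKM in siNC (-0.83). SERPINB4 was at 4.13, 4.48 and 3.40 FPKM in siEGFR and 9.79, 9.80 and 10.7 FPKM in siNC (-1.16), and its close relative SERPINB3 changed by -1.17, so their reads may be shared. Of 10 matrix metalloproteases and members of the plasminogen system, 5 were lower and 2 higher (3 and 2 in the 15-library fit). MMP13, a collagenase, averaged 4.01 ± 0.129 FPKM in siEGFR and 6.44 ± 0.190 FPKM in siNC (-0.57). The urokinase PLAU averaged 101 ± 3.54 FPKM in siEGFR and 145 ± 4.34 FPKM in siNC (-0.51).

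**Figure D4:**
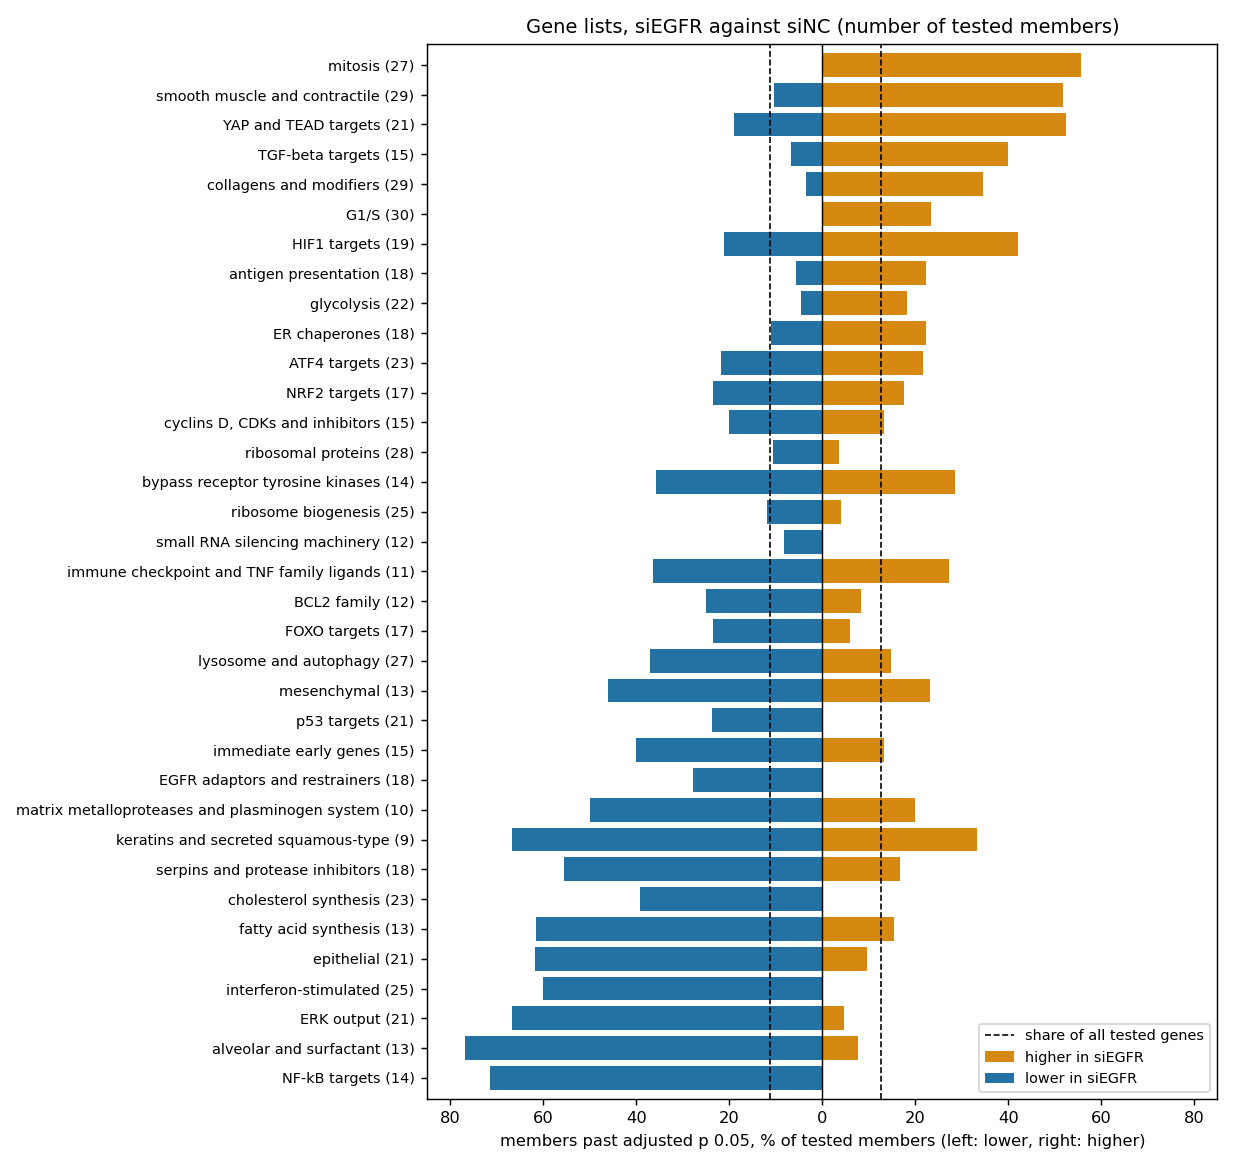
Share of tested members past adjusted p 0.05 in each gene list with at least 9 tested members (rows, number tested in parentheses), higher in siEGFR to the right in orange and lower to the left in blue, in percent on the x axis. Dashed lines mark the shares over all tested genes, 12.7% higher and 11.3% lower. The lists at the bottom (NF-kB targets, alveolar and surfactant, ERK output, interferon-stimulated) lie far beyond the lower line. Their bars include genes tested only through siNC, 4 of the alveolar and 1 of the interferon calls, which are no support for those lists.

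Genes of the interferon response were lower without exception among those called. Of 25 tested, 15 were lower and none higher, with a median of -0.22 (6 lower in the 15-library fit). OAS1, a sensor of double-stranded RNA, was at 2.62, 2.64 and 2.50 FPKM in siEGFR, against 4.56, 4.69 and 4.92 FPKM in siNC (-0.68). Its relative OAS3 was at 5.27, 5.20 and 5.57 FPKM in siEGFR and 8.14, 8.57 and 8.15 FPKM in siNC (-0.55), and the interferon-induced IFI44 averaged 19.8 ± 0.649 FPKM in siEGFR and 27.5 ± 0.801 FPKM in siNC (-0.46). The signal transducer STAT2 did not pass (0.07). IFNB1, which encodes interferon beta, averaged 0.0175 FPKM in siEGFR and 0.0199 FPKM in siNC.

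Targets of NF-kB mostly fell. Of 14 tested, 10 were lower and none was higher, with a median of -0.32 (6 lower in the 15-library fit). ICAM1, an adhesion molecule for leukocytes, was at 13.7, 13.0 and 13.1 FPKM in siEGFR, against 21.1, 22.6 and 21.7 FPKM in siNC (-0.68). TNFAIP3, which restrains NF-kB, was at 2.11, 2.33 and 2.12 FPKM in siEGFR and 4.15, 4.08 and 4.29 FPKM in siNC (-0.70), and the inhibitor NFKBIA was at 16.3, 15.95 and 15.2 FPKM in siEGFR and 21.7, 22.2 and 22.1 FPKM in siNC (-0.45). The chemokine CXCL2 fell by 0.66. IL6 (-0.33) and CXCL1 (0.11) did not pass.

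The core of the interferon-stimulated response element, TTTCNNTTTC on either strand, was in 17 of 24 promoters of the 19 tested interferon genes in the table (70.8%), against 3.02% of all promoters. It was found for 10 of 11 lower genes and 4 of 8 that did not pass. These include IFI44L, which fell, and DDX60, which did not pass. Both were in the test only through siNC, so these counts are a description and no support for the group. The kappaB site, searched by name on both strands, was in 8 of 18 promoters of 12 NF-kB targets (44.4%) against 9.96% of all, for 5 of 8 lower genes and 2 of 4 that did not pass. Every match to the motif of the gene's own group is in capitals. The windows shown are those of genes that fell, and of ISG15, an interferon gene that did not pass (-0.14). They lie at chr12:112938306-112938365 (plus strand, OAS3), chr14:94110603-94110662 (plus, IFI27), chr15:88638922-88638981 (plus, ISG20), chr1:1013365-1013424 (plus, ISG15), chr4:74099238-74099297 (minus, CXCL2), chr14:35404796-35404855 (minus, NFKBIA) and chr6:137867167-137867226 (plus, TNFAIP3).
OAS3: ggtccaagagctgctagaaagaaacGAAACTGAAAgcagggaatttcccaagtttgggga
IFI27: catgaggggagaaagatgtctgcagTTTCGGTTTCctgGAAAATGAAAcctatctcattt
ISG20: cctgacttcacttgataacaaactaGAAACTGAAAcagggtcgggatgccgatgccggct
ISG15: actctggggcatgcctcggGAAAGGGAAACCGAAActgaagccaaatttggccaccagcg
CXCL2: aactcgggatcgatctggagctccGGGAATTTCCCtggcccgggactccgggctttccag
NFKBIA: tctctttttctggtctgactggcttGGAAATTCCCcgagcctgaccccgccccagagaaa
TNFAIP3: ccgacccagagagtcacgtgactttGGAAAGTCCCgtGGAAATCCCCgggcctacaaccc

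Part of the lipid synthesis genes fell. Of 23 genes of cholesterol synthesis and uptake 9 were lower and none higher (2 lower in the 15-library fit), and of 13 genes of fatty acid synthesis 8 were lower and 2 higher (3 and 0 in the 15-library fit, 5 lower without siNC 1, 4 without siEGFR 2 and 5 without siEGFR 3). HMGCS1, an early enzyme of the mevalonate pathway, was at 9.43, 9.12 and 9.51 FPKM in siEGFR, against 15.6, 15.3 and 15.3 FPKM in siNC (-0.66). The regulator SREBF2 fell by 0.23, and SQLE, a later enzyme of the pathway, did not pass (0.05). SCD, the stearoyl-CoA desaturase, was at 59.3, 57.0 and 57.4 FPKM in siEGFR, against 93.0, 90.2 and 93.2 FPKM in siNC (-0.66), and the regulator SREBF1 was at 11.7, 11.6 and 10.7 FPKM in siEGFR and 18.2, 19.3 and 17.9 FPKM in siNC (-0.66). ELOVL6, a fatty acid elongase, rose by 0.43.

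Cell cycle transcripts were higher in part, by small amounts. Of 27 mitotic genes 15 were higher and none lower, with a median of 0.13 (2 higher in the 15-library fit). ANLN, the cytokinesis scaffold anillin, was at 79.4, 80.0 and 83.0 FPKM in siEGFR and 55.5, 50.9 and 58.0 FPKM in siNC (0.55). KIF20A, a mitotic kinesin, rose by 0.32 and CDC20, an activator of the anaphase-promoting complex, by 0.30. Of 30 genes of the G1/S transition 7 were higher and none lower (0 in the 15-library fit, 3 after median-of-ratios scaling, 4 without siNC 1, and 2 without siEGFR 2 or siEGFR 3), among them the helicase subunits MCM6 (0.16) and MCM3 (0.18) and the DNA polymerase subunit POLA1 (0.18, lost in 4 of 16 alternative settings). Of 15 D-type cyclins, cyclin-dependent kinases and their inhibitors 2 were higher and 3 lower (0 and 1 in the 15-library fit), the lower ones including CCND1 and CDKN1A (-0.20, lost in 6 of 16 alternative settings). These shares were 13.3% higher and 20% lower, against 12.7% and 11.3% over all tested genes, so the higher share was near that of all genes. Of 12 members of the BCL2 family, which set the threshold of apoptosis, 3 were lower (25%) and 1 higher (8.33%), with 1 and 1 in the 15-library fit. MCL1 (-0.29), BCL2L2 (-0.25) and BCL2L1 (-0.19), all survival proteins, were the lower ones, and the proapoptotic BCL2L11 did not pass (-0.03).

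Receptor tyrosine kinases other than EGFR changed in both directions, with 4 of 14 higher and 5 lower (2 and 2 in the 15-library fit, and 2 higher without siEGFR 2). AXL led the increases. MST1R, the receptor of macrophage-stimulating protein, was at 12.7, 13.3 and 13.1 FPKM in siEGFR, against 18.3, 19.4 and 17.5 FPKM in siNC (-0.46), and MET, the receptor of hepatocyte growth factor, was at 40.3, 38.8 and 40.9 FPKM in siEGFR and 48.9, 47.7 and 49.7 FPKM in siNC (-0.28). Among 11 immune checkpoint and TNF family ligands, 3 were higher and 4 lower (1 and 2 in the 15-library fit). CD70, a ligand of the TNF family, was at 28.1, 29.2 and 26.1 FPKM in siEGFR, against 14.1, 15.9 and 14.8 FPKM in siNC (0.85). CD276 fell by 0.27, and CD274, the checkpoint ligand PD-L1, did not pass (0.02).

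Several of the largest changes lay outside these groups. VGF, the precursor of secreted neuropeptides, was at 114, 103 and 97.4 FPKM in siEGFR, against 223, 216 and 207 FPKM in siNC (-1.04 ± 0.06, adjusted p = 8.3e-05). C11orf86 was at 13.3, 13.4 and 13.7 FPKM in siEGFR and 28.1, 30.1 and 30.3 FPKM in siNC (-1.07), and TCIM was at 2.02, 2.26 and 2.09 FPKM in siEGFR and 6.01, 5.66 and 5.95 FPKM in siNC (-1.14). MYBPH, a myosin-binding protein, fell by 1.04 and MAL2, a protein of apical membrane traffic, by 0.94. On the other side, MATN2, a matrix matrilin, was at 9.81, 10.4 and 10.2 FPKM in siEGFR, against 5.60, 5.80 and 5.60 FPKM in siNC (0.74). APLP1, of the amyloid precursor family, rose by 0.72, the noncoding RNA LINC01638 by 0.69 and the chloride channel protein CLIC3 by 0.65.

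Almonertinib against control cells offered a second way of lowering EGFR activity, with its own control libraries. In a fit of the 12 libraries, with 14828 genes tested, almonertinib raised 1693 (11.4%) and lowered 2586 (17.4%). Of 13318 genes tested in both comparisons, 528 were lower in both, which is 35.0% of those lower in siEGFR and 21.0% of those lower with almonertinib. Another 288 were higher in both, which is 17.0% of those higher in siEGFR and 20.6% of those higher with the drug. Opposite calls were made for 266 genes higher in siEGFR and lower with the drug, and for 143 lower in siEGFR and higher with the drug. Across these genes, which are not independent replicates, the changes had a Pearson r of 0.0994 and a Spearman rho of 0.110.

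The siEGFR effect minus the almonertinib effect was itself tested, and 1835 genes (12.4%) passed, 1049 with a more positive change in siEGFR (7.07%) and 786 with a more negative one (5.30%). This balance depended on the scaling, with 751 more positive and 912 more negative after median-of-ratios scaling and 1595 and 558 after scaling to a common sum of FPKM. Leaving out 1 library gave between 981 genes, without siEGFR 3, and 2943, without almonertinib 3. The median of this difference over all tested genes was 0.07, 0.14 after scaling to a common sum of FPKM and -0.01 after median-of-ratios scaling, so values near that size carry no direction. The 2 control groups also differed from each other, with VGF at 215 FPKM in siNC and 6.18 FPKM in control cells, and KRT7 at 303 FPKM in siNC and 56.4 FPKM in control cells. Whether culture, transfection or time differed between these groups cannot be told apart from the treatments.

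Among the largest positive differences, EGR1, an immediate early transcription factor, changed by -0.49 in siEGFR and -3.42 with almonertinib (difference 2.93 ± 0.11, adjusted p = 2.93e-07). With almonertinib it averaged 0.370 ± 0.0655 FPKM, against 13.7 ± 1.24 FPKM in control cells. EGR1 was lower in siNC than in control cells. From the siNC level a fall as large as that with the drug was not possible on this scale, so part of the difference was set by the starting levels. FOSL1 changed by 0.41 in siEGFR and -1.69 with almonertinib (difference 2.11, adjusted p = 3.89e-05), PHLDA2, an imprinted growth regulator, by -0.43 and -2.33, CCND1 by -0.37 and -2.15, and the transglutaminase TGM2 by 0.17 and -1.57. DUSP6 and MYEOV changed by -0.98 and -0.95 in siEGFR and by -1.23 and -0.99 with the drug, and their differences did not pass (adjusted p = 0.0722 and 0.795). AREG changed by -1.18 in siEGFR and -1.71 with the drug (difference 0.54, adjusted p = 0.0153).

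**Figure D5:**
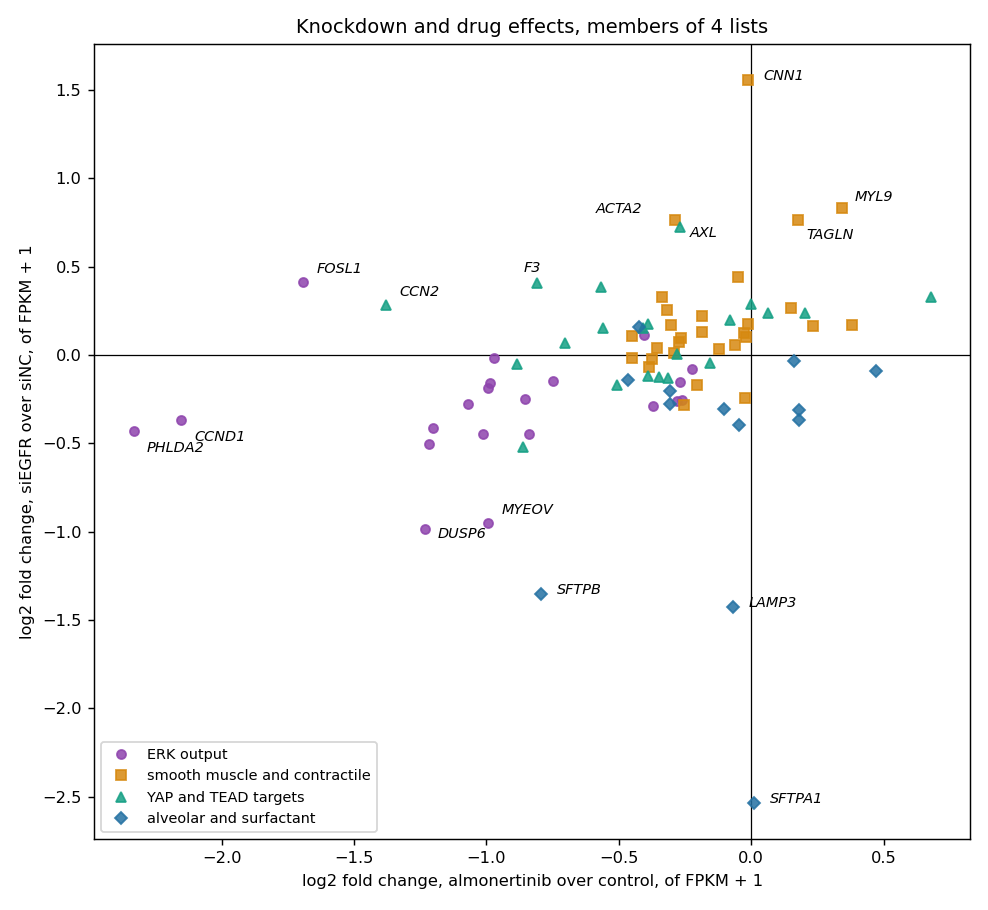
Log2 fold change of FPKM + 1 in siEGFR over siNC (y axis) against almonertinib over control (x axis) for the tested members of 4 lists, each point 1 gene. Most ERK output genes lie lower left and FOSL1 lies above 0 on the y axis, CNN1, SFTPA1 and LAMP3 lie near 0 on the drug axis, and CCN2 and AXL are higher in siEGFR and lower with the drug.

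Among the negative differences, SFTPA1 led with -2.54 ± 0.11, but it was at or near 0 in both drug groups, where no fall could be seen. HSD17B14, a steroid dehydrogenase, changed by -0.40 in siEGFR and 1.98 with the drug, the membrane glycoprotein GPNMB by -0.34 and 1.38, and the phosphatase ACP5 by -0.78 and 0.86. ID2, an inhibitor of basic helix-loop-helix factors, rose by 1.73 with the drug and did not pass in siEGFR (-0.10). SREBF1 changed by -0.66 in siEGFR and 0.50 with the drug (adjusted p of the difference = 0.000786).

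Some contractile genes and YAP targets differed between the treatments too. Of 30 contractile genes in the 12-library fit 9 had a more positive change in siEGFR and none a more negative one (8 and 12 more positive after median-of-ratios and common-sum scaling), and of 21 YAP targets 9 and none did (8 and 14). Over all genes these shares were 7.07% and 5.30%, as above. With no filter on low values, 9 contractile genes and 6 YAP targets had a more positive change. CNN1 was in the 12-library fit only through siEGFR, so its difference is no support for the contractile count. MYL9 rose in both, by 0.83 in siEGFR and 0.34 with almonertinib (adjusted p of the difference = 0.00622, and 0.0561 after median-of-ratios scaling), and TAGLN by 0.76 and 0.18 (adjusted p = 0.00143). ACTA2 rose by 0.76 in siEGFR and changed by -0.29 with the drug, where it averaged 0.760 ± 0.140 FPKM, against 1.15 ± 0.184 FPKM in control cells (adjusted p of the difference = 0.00082). CNN1 did not pass with the drug (-0.01), at 0.0704 FPKM with almonertinib and 0.0795 FPKM in control cells, levels at which a fall could not be seen. AXL changed by 0.73 in siEGFR and -0.27 with the drug (difference 0.996 ± 0.08, adjusted p = 4.85e-05), CCN1 by 0.39 and -0.57, and CCN2 by 0.28 and -1.38. The median over the contractile list was 0.13 in siEGFR and -0.19 with almonertinib, and over the YAP list 0.15 and -0.39. In the mitotic list it was 0.13 in siEGFR and -0.39 with the drug, 12 of 27 differences passed, all more positive (6 with no filter on low values, 6 to 8 without any 1 of the siEGFR or siNC libraries, 8 without almonertinib 1, almonertinib 2 or control 3, and 19 without almonertinib 3), and KIF20A changed by 0.32 and -0.41 (adjusted p of the difference = 0.000169).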

How the data were processed

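RNA-seq of 15 NCI-H1975 libraries was deposited as FPKM in 1 table of 61248 loci (643 added by the authors), and the authors' FPKM were used as deposited. HISAT2, featureCounts and DESeq2 and the build hg19 are named in the submitters' processing notes, without roles or versions. Symbols matched 60463 IDs by Ensembl ID. FPKM values were whole multiples of a step per read (100.0% within 0.01 reads), which gave the read totals.

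Genes with 1 FPKM or more in at least 3 libraries of a fit were tested on log2(FPKM + 1) with limma 3.58.1 in R 4.3.3 (trend, robust, 2-sided, Benjamini-Hochberg over all tested genes, threshold 0.05), on 6 libraries for siEGFR against siNC and 12 for its difference from almonertinib against control. The 6 libraries were fitted alone because their spread was lower than that of the other groups. The added 1 understates changes of low genes. Higher, lower, rose and fell refer to genes past the threshold. Replicate numbers did not pair the samples. The read recovery and the limma fits were tested on simulated data. The alternatives changed the pseudocount, filter, scaling, variance model, libraries and threshold, or used limma-voom on the recovered reads.

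The named genes are EGFR and its markers, the 12 largest increases and decreases at 5 FPKM or more in the higher group without overlap of replicates, every expressed receptor, ligand and contractile gene, up to 3 members of each other list by p, and the 5 largest differences each way. A few of these genes are not reported here, but the fits and list counts include them. Other list members are examples chosen after their values were seen, as are SERPINB3 and the 15-library calls named. The members and lists were chosen with earlier results of these data known. Promoters are RefSeq's (GRCh38.p14) and no coordinate was converted. Figures were drawn with matplotlib 3.10.9.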

Additional observations from a re-analysis of the deposited data

How the results depend on the processing

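The 3203 calls of siEGFR against siNC kept their sign in every setting that tested them (3159 of them with the filter on a mean of 1 FPKM), and counts moved as follows, higher then lower. Without the filter on low values 1763 genes were called (813 and 950), with all 15 libraries in the fit 838 (346 and 492), and at a threshold of 0.01 1436 (674 and 762). Leaving out 1 library gave 1884 to 2887 calls, 940 to 1485 higher and 944 to 1402 lower, fewest without siEGFR 2. With the replicate block the counts were 1488 and 1414; the correlations of same-numbered libraries, 0.0422, -0.013 and 0.0221, show no pairing. Median-of-ratios scaling moved the share of higher calls to 44.6%, from 52.9% (1386 and 1723). Limma-voom on recovered reads called 2248 and 1927. For the difference from almonertinib, the counts were 1187 (628 higher) without the filter, 695 (386 and 309) at 0.01, and 1595 higher after scaling to a common sum of FPKM, where 74.1% were higher, against 57.2% as reported and 45.2% by median ratios. With the replicate block they were 1139 and 758. Leaving out 1 library gave 981 to 2943, 529 to 1808 higher and 452 to 1135 lower, most without almonertinib 3 and fewest without siEGFR 3. The cause of these shifts was not tested. Of 685 single genes followed for siEGFR against siNC, 406 kept their side of the threshold in every setting other than 0.01 that tested them. Among the 327 called genes 133 did so and none changed sign, and among the 358 not called 86 changed sign in some setting. The 10 differences from almonertinib named by size all stayed past the threshold. With 3 libraries a group, changes of small size rest on the low spread of the siRNA libraries, and genes under about 1 FPKM were not tested.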

Other observations

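Stress and housekeeping groups changed less evenly. Of 19 HIF1 targets 8 were higher and 4 lower (2 and 3 in the 15-library fit, and 5 higher without siEGFR 2 or siEGFR 3). ANGPTL4, a secreted lipase inhibitor, averaged 7.47 ± 0.326 FPKM in siEGFR and 14.6 ± 0.994 FPKM in siNC (-0.88), NDRG1 changed by -0.36, and the carbonic anhydrase CA9 by 0.44. Of 17 NRF2 targets 3 were higher and 4 lower (1 and 2 in the 15-library fit, and 2 lower without siNC 1, siEGFR 2 or siEGFR 3), with HMOX1, heme oxygenase 1, at 94.2, 90.0 and 92.7 FPKM in siEGFR and 57.9, 59.7 and 59.1 FPKM in siNC (0.64). Of 21 p53 targets 5 were lower and none higher (2 in the 15-library fit), and of 23 ATF4 targets 5 were higher and 5 lower (2 and 2 in the 15-library fit, and 2 or 3 lower without siNC 1, siNC 2, siNC 3, siEGFR 2 or siEGFR 3). GDF15, a stress cytokine on both lists, was at 3.42, 3.24 and 3.39 FPKM in siEGFR and 7.002, 6.83 and 6.51 FPKM in siNC (-0.84). Of 17 FOXO targets 4 were lower and 1 higher (2 and 0 in the 15-library fit, and 2 lower without siNC 1, siEGFR 2 or siEGFR 3), with SESN3 at -0.51.

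Of 27 lysosome and autophagy genes 10 were lower and 4 higher (5 and 0 in the 15-library fit, and 6 lower without siEGFR 2 or siEGFR 3). The 4 higher ones were 0 to 2 when any 1 library was left out. The cholesterol carrier NPC2 (-0.51), the protease CTSL (-0.40) and PSAP (-0.27) fell. Among 18 ER chaperone and stress genes 4 were higher and 2 lower, among 22 glycolytic genes 4 and 1, and among 18 antigen presentation genes 4 and 1. Among 25 ribosome biogenesis genes 1 was higher and 3 lower, among 28 ribosomal protein genes 1 and 3, and among 7 metallothionein genes 1 and 1. Over all tested genes 12.7% were higher and 11.3% lower. Ribosome biogenesis (4% and 12%), ribosomal proteins (3.57% and 10.7%) and metallothioneins (14.3% and 14.3%) were near or below those shares. In the 15-library fit 1 and 2 of the ER chaperones passed and none of the other 5 groups, and the higher glycolytic genes were 1 to 7 with 1 library left out. Of 12 genes of the small RNA silencing machinery 1, DICER1, was lower (-0.13, lost in 6 of 16 alternative settings), and AGO2, the slicer that loads siRNAs, was at 0.00 and did not pass.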
